A study of Mus musculus with 2 samples.

Results

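The IκB genes described here are Nfkbia, Nfkbib and Nfkbie, which encode the classical inhibitors IκBα, IκBβ and IκBε, and Nfkbiz, Nfkbid and Bcl3, which encode the nuclear IκB proteins IκBζ, IκBNS and Bcl-3. These 6 genes were chosen by name as mouse members of both classes, 3 in each, out of 55536 annotated genes in the gene tables. Other IκB-related genes, such as Ankrd42 and Nfkbil1, are listed apart, and earlier results of these data were known at the choice. The RNA came from bone marrow-derived macrophages of C57BL/6J mice, primary cells grown from marrow, that had been exposed to 100 ng/ml Lipid A for 30 min. Lipid A is the part of bacterial lipopolysaccharide that is sensed through Toll-like receptor 4. RNA of the nucleoplasmic fraction (the labels also name it nuclear) was depleted of ribosomal RNA and sequenced in 2 libraries, which the labels number as biological replicates. Replicate 1 was started from 1 µg of RNA and replicate 2 from 500 ng. Sex and age were not collected. Only stimulated cells were in this set, so the values are levels after Lipid A in nuclear RNA; no gene can be called induced or repressed, and no p-value was computed.

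In resting cells, classical IκB proteins bind NF-κB dimers through ankyrin repeats and keep most of them out of the nucleus or off DNA. Signals such as Lipid A activate the IKK complex, which phosphorylates IκB; a ubiquitin ligase with β-TrCP then marks it for the proteasome, and the freed NF-κB enters the nucleus. Nfkbia is itself an NF-κB target, and its resynthesis closes a negative feedback loop. The nuclear IκB proteins act in the nucleus instead, where they bind mainly p50 or p52 homodimers and raise or lower transcription of chosen genes. IκBζ, which appears early in the macrophage response to lipopolysaccharide, is needed for a later group of cytokine genes.

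Promoter windows are shown first because NF-κB can feed back on several of these genes through κB sites near the start. They run from 250 bases before to 50 bases after each RefSeq gene start (GRCm38.p6). Windows were matched by symbol for Nfkbia, Nfkbib, Nfkbie, Nfkbid (3 starts) and Bcl3. None matched Nfkbiz, so its promoter was not searched. Both strands were searched for the 10-base κB consensus. The windows of Nfkbia, the most abundant member, and Nfkbib, a low classical member, are given whole, with capitals for a κB match. Nfkbia lies at chr12:55492598-55492897 and Nfkbib at chr7:28766595-28766894, both on the minus strand.
Nfkbia: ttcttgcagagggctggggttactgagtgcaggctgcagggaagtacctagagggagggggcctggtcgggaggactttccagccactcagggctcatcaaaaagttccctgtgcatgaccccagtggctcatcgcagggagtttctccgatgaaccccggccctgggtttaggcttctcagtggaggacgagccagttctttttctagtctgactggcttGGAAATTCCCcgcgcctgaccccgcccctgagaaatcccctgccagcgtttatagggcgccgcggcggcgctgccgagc
Nfkbib: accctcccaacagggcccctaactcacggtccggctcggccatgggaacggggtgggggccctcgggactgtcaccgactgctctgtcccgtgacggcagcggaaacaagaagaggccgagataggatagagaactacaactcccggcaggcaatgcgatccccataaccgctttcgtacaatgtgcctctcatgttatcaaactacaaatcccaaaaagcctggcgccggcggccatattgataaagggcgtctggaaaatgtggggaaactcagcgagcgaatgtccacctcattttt
Nfkbia has a match 29 to 20 bases before its start, and the Nfkbib window has none. The Nfkbib window holds the start of transcript Nfkbib-201 and not that of the leading Nfkbib-202, at chr7:28766514.

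The other κB matches are given with 10 bases on each side. The Nfkbie match (chr17:45555584-45555613, plus strand) starts 106 bases before the gene start. Both Nfkbid matches (chr7:30422170-30422199 and chr7:30422215-30422244, plus strand) lie in the window of the middle of its 3 starts, 226 and 181 bases before it. The Bcl3 match (chr7:19822734-19822763, minus strand) lies 2 to 11 bases after the gene start.
Nfkbie: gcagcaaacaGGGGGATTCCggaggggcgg
Nfkbid first match: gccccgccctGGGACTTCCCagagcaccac
Nfkbid second match: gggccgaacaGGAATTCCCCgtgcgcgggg
Bcl3: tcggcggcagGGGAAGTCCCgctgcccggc
Windows of the first and the last Nfkbid start held no match. Over the whole RefSeq table, 8.46% of 32851 windows and 9.55% of 27025 genes held at least 1 κB match. The AP-1 motif TGANTCA, on both strands, was found in the Nfkbie window, against 7.81% of all windows. The TATA motif TATAAA was found in the Nfkbia window, on the strand opposite to the gene and 19 to 24 bases after the annotated start, against 13.6% of all windows. The GC box GGGCGG was found in windows of Nfkbia, Nfkbie, Nfkbid and Bcl3, against 35.7% of all windows. No κB match overlapped a match of the other motifs. These are matches of letters and do not show binding.

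All 6 IκB genes were detected at no less than 1 TPM (a read level per transcript length, scaled to the same total in each library) in both libraries, against 20.7% of all annotated genes and 42.5% of the 21951 protein-coding genes. Their median level was 134 TPM, against a median of 8.61 TPM over the 9334 detected protein-coding genes. The members spread widely around it: Nfkbia was the highest and Bcl3 the lowest, with 21.9 and 21.3 times as much Nfkbia as Bcl3 within replicates 1 and 2. Class did not order them, since a classical and a nuclear gene led and a classical and a nuclear gene came last. Together they took 67835 of the 15846212 counts in replicate 1, or 0.428% (95% Wilson interval 0.425 to 0.431%), and 49309 of 14874879, or 0.331% (0.329 to 0.334%), in replicate 2. These intervals cover counting error only.

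Among the classical genes, Nfkbia (ENSMUSG00000021025.8, chr12:55489410-55492647 in mm10, minus strand) encodes IκBα, the fast-turnover inhibitor of the feedback loop. It had 819 TPM in replicate 1 and 443 TPM in replicate 2, a mean of 631 ± 266 (SD, n = 2), from 18373 and 11291 counts. That placed it at rank 35 among protein-coding genes.

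Nfkbie (ENSMUSG00000023947.8, chr17:45555703-45563169, plus strand) encodes IκBε, a further inhibitor that NF-κB can induce. It had 131 TPM in replicate 1 and 56.0 TPM in replicate 2, a mean of 93.7 ± 53.3 TPM (SD, n = 2), at rank 428, from 5642 and 3045 counts. Relative to its mean it had the widest gap between libraries of the 6 genes.

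Nfkbib (ENSMUSG00000030595.15, chr7:28758251-28767512, minus strand) encodes IκBβ, which turns over more slowly. It had 64.5 TPM in replicate 1 and 30.1 TPM in replicate 2, a mean of 47.3 ± 24.3 TPM (SD, n = 2), at rank 962, from 1188 and 702 counts. Nfkbia stood 12.7 times above Nfkbib within replicate 1 and 14.7 times within replicate 2, and 6.24 and 7.92 times above Nfkbie. The gap from Nfkbia to the other classical genes was therefore wider than the gap between libraries for any of the 3.

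Among the nuclear genes, Nfkbiz (ENSMUSG00000035356.17, chr16:55811375-55838899, minus strand) encodes IκBζ. It had 670 TPM in replicate 1 and 424 TPM in replicate 2, a mean of 547 ± 174 TPM (SD, n = 2), at rank 45. With 36520 and 28675 counts it was the most deeply counted member, and it is a longer gene than Nfkbia.

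Nfkbid (ENSMUSG00000036931.15, chr7:30421732-30428746, plus strand) encodes IκBNS, which restrains some lipopolysaccharide-induced genes in mouse macrophages. It had 198 TPM in replicate 1 and 150 TPM in replicate 2, a mean of 174 ± 33.7 TPM (SD, n = 2), at rank 199, from 5407 and 5109 counts. Relative to its mean it had the narrowest gap between libraries.

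Bcl3 (ENSMUSG00000053175.17, chr7:19808462-19822770, minus strand) encodes a partner of p50 and p52 homodimers that can repress or activate. It had 37.4 TPM in replicate 1 and 20.8 TPM in replicate 2, a mean of 29.1 ± 11.8 TPM (SD, n = 2), at rank 1693, from 705 and 487 counts. Nfkbiz stood 17.9 and 20.4 times above Bcl3 within replicates 1 and 2.

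**Figure D1:**
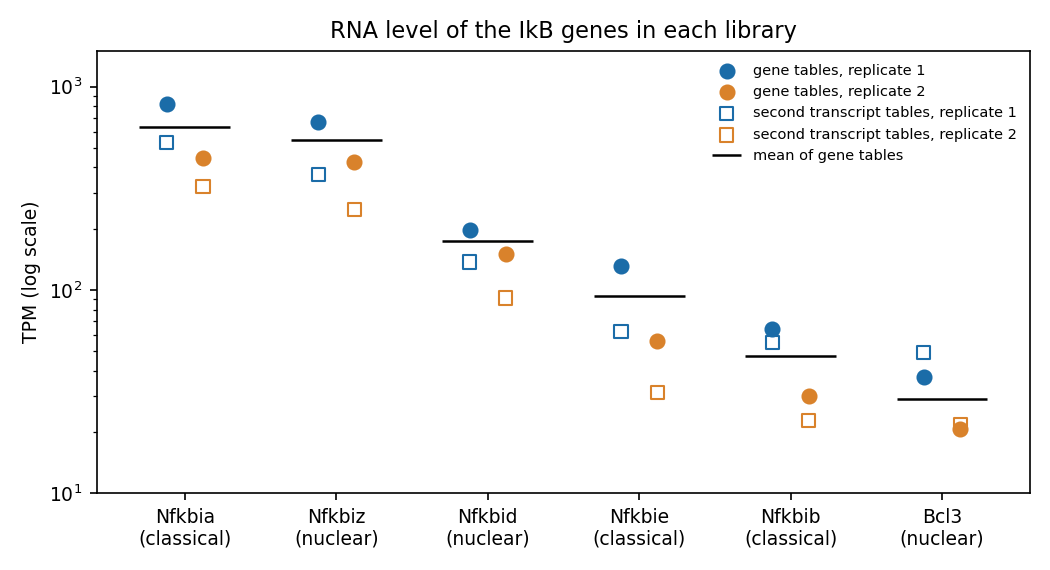
TPM of each IκB gene on a log axis: filled circles are the gene tables, open squares the second transcript tables, blue replicate 1 and orange replicate 2, and black lines the means of the gene tables. The order from Nfkbia to Bcl3 is the same in each library and each kind of table, and replicate 1 is above replicate 2 for each gene.

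The order was Nfkbia, Nfkbiz, Nfkbid, Nfkbie, Nfkbib and Bcl3 in both libraries. Neighbours in it were not all apart. The ranges over the 2 libraries overlapped for Nfkbia and Nfkbiz (819 and 443 TPM against 670 and 424 TPM), for Nfkbie and Nfkbib, and for Nfkbib and Bcl3. Nfkbiz lay above Nfkbid in both libraries, 3.39 and 2.83 times, with no overlap of their ranges. Nfkbid (198 and 150 TPM) lay above Nfkbie (131 and 56.0 TPM), again with no overlap.

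The second transcript tables, a separate quantification of the same libraries, gave the same order with other levels. Summed over transcripts, Nfkbia had 528 and 322 TPM there in replicates 1 and 2, Nfkbiz 370 and 249 TPM, and Nfkbid 137 and 91.1 TPM. Nfkbie had 62.3 and 31.2 TPM, Nfkbib 54.9 and 22.7 TPM, and Bcl3 49.2 and 21.8 TPM. The mean of Nfkbie was thus 46.7 TPM in the second tables, against 93.7 TPM in the gene tables, and the mean of Nfkbiz was 309 TPM, against 547 TPM. Bcl3 was the only member with a higher mean in the second tables (35.5 TPM).

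**Figure D2:**
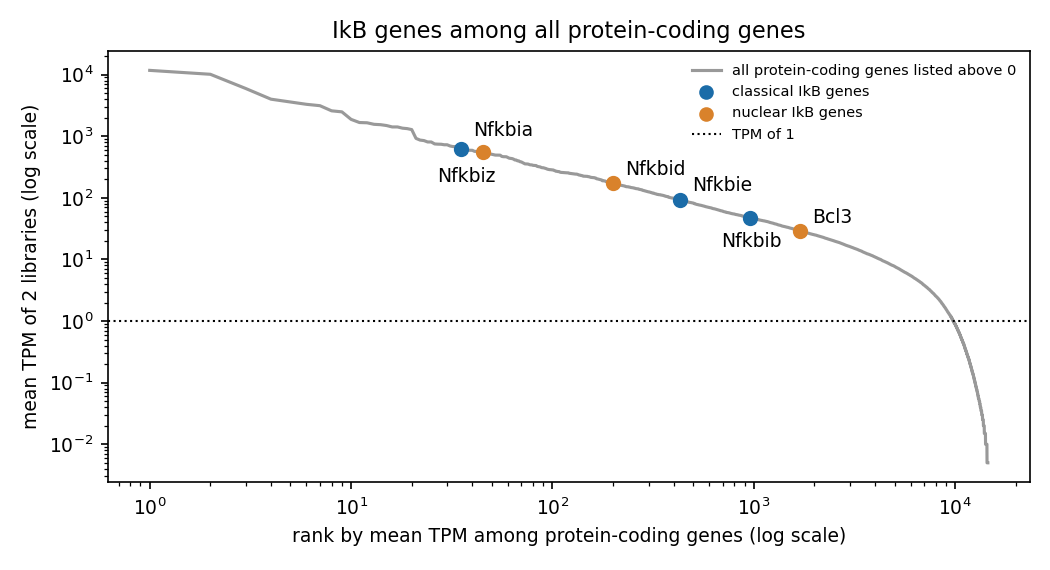
Mean TPM of the 2 libraries (log axis) against rank (log axis) for the protein-coding genes listed above 0, with the IκB genes marked by class, blue classical and orange nuclear. Nfkbia and Nfkbiz lie at ranks 35 and 45, Bcl3 at rank 1693, and all 6 lie above the dotted line at 1 TPM.

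For each member, the protein-coding gene with the most similar level was found over the 2 libraries (the smallest distance in log2(TPM + 1), among 21945 other genes). For Nfkbia this was Tnfaip3, which encodes A20, a ubiquitin-editing inhibitor of NF-κB signalling, at 800 and 452 TPM in replicates 1 and 2. For Nfkbiz it was Sdc4, which encodes the cell-surface proteoglycan syndecan 4, at 728 and 405 TPM, the loosest of the 6 matches. The others were Abca1, a cholesterol exporter, for Nfkbid (199 and 149 TPM), the kinesin gene Kif13b for Nfkbie (131 and 56.1 TPM), the small Maf factor gene Maff for Nfkbib (65.6 and 30.3 TPM) and the forkhead gene Foxn3 for Bcl3 (38.1 and 20.6 TPM). With 2 libraries, such a match is one of level only.

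All 6 genes were higher in replicate 1, where the counts were scaled by TMM (trimmed mean of M-values, which sets most genes to an equal level). On that scale 52.4% of the 10448 genes with a mean of at least 50 counts were higher in replicate 1. The log2 ratio of replicate 1 over replicate 2 was 0.82 for Nfkbie, 0.69 for Nfkbib and 0.64 for Nfkbia. It was 0.47 for Bcl3, 0.28 for Nfkbiz and 0.02 for Nfkbid. On this scale the 3 classical genes lay above the 3 nuclear genes, but in the second tables Bcl3, at 0.48, lay above Nfkbia, at 0.41. The median was 0.55 over the members and 0.03 over all those genes. None of the 6 passed a 2-fold ratio in either direction, against 9.02% of those 10448 genes, and 3.8% of them were beyond 2-fold with the higher level in replicate 1. Nfkbie came nearest, at 1.77-fold, and 6.83% of genes had a higher ratio than it.

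The deposited credibility bounds of replicates 1 and 2, brought to the same scale, did not overlap for 5 members and overlapped for Nfkbid, whose ratio was 1.01. They did not overlap for 41.7% of the 10448 genes, a pool that takes in genes of lower and higher counts than the members. For Nfkbid the sign depended on the scaling, with a log2 ratio of -0.01 by library size alone and of -0.02 by DESeq2 size factors. Taken as TPM the members differed more, but so did genes at large: the TPM ratio was above 1 for all 6 members and for 75.3% of genes, whose median log2 TPM ratio was 0.44. Nfkbie and Nfkbib then passed 2-fold, at TPM ratios of 2.35 and 2.14. The replicates also differed in the amount of starting RNA (1 µg and 500 ng), and its part in these ratios was not tested. In bulk RNA, fewer cells that express a gene and less RNA per cell cannot be told apart.

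**Figure D3:**
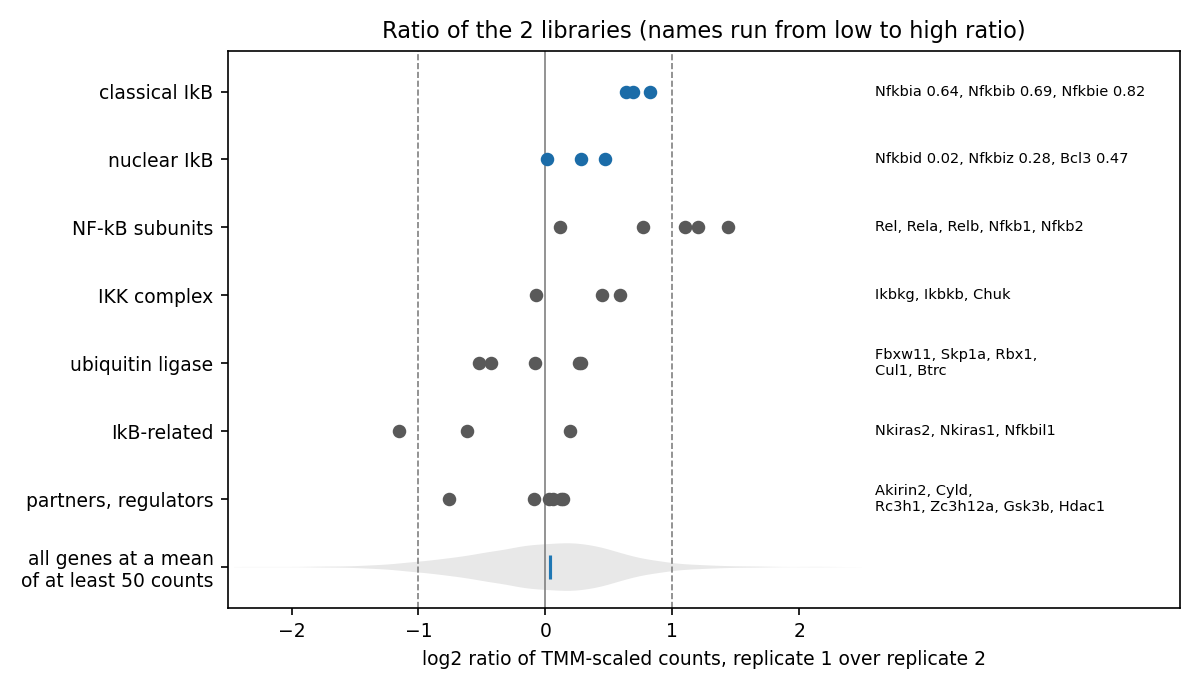
Log2 ratio of TMM-scaled counts, replicate 1 over replicate 2, for the classical and nuclear IκB genes (blue), the other pathway genes with a mean of at least 50 counts (grey; the genes that need IκBζ are left out) and, as a violin with its median line, all 10448 such genes, 28 of which lie outside the drawn range. Dashed lines mark 2-fold; the IκB genes lie between 0.02 and 0.82, inside the lines, and Relb, Nfkb1 and Nfkb2 lie beyond the upper line.

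The genes of the proteins that IκB binds, the 5 NF-κB subunits, were all detected and had a median level of 50.3 TPM, between those of Nfkbie and Nfkbib. Rel (c-Rel) had 80.3 and 58.1 TPM in replicates 1 and 2, Nfkb2 (p100, cut to p52) 96.4 and 27.2 TPM, and Relb 53.5 and 17.4 TPM. Nfkbia and Nfkbiz lay above each of the 5 in both libraries, and so did Nfkbid. Of these 5 genes, 3 were more than 2-fold higher in replicate 1 after TMM, against 3.8% of genes with a mean of at least 50 counts. The log2 ratios of the 3 were 1.44 for Nfkb2, 1.21 for Nfkb1 (p105, cut to p50) and 1.10 for Relb. Rela (p65) had a log2 ratio of 0.77 and Rel of 0.11. Those 3 subunits were set apart by the 2-fold call, which no IκB gene passed. They therefore do not show how the IκB genes compare with the subunits as a set. Rela lay below Nfkbie (0.82), and Rel lay below each IκB gene except Nfkbid (0.02).

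Upstream, the IKK genes Ikbkb (69.1 and 35.9 TPM in replicates 1 and 2), Chuk (56.6 and 29.4 TPM) and Ikbkg (11.7 and 7.18 TPM) had a median of 43.0 TPM. The 5 genes of the ligase that recognises phosphorylated IκB (Btrc, Fbxw11, Cul1, Skp1a, Rbx1) were all detected, at a median of 11.4 TPM, and Bcl3, the lowest IκB gene, was at 37.4 and 20.8 TPM in replicates 1 and 2, against 21.6 and 12.8 TPM for Cul1, the highest of those 5. Among 4 IκB-related or IκB-binding genes, Nkiras1 and Nkiras2 (κB-Ras proteins, which bind IκB and slow its degradation), Nfkbil1 and Ankrd42, 3 were detected, at a median of 4.53 TPM over the 4. None of the IKK or ligase genes passed 2-fold between libraries, against 9.02% of genes with a mean of at least 50 counts. Nkiras2 was lower in replicate 1, with a log2 ratio of -1.15.

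Genes that act on the nuclear IκB proteins or their mRNA were all detected, 6 of 6, at a median of 23.3 TPM. Zc3h12a, which encodes Regnase-1, an RNase that cleaves Nfkbiz mRNA in mouse cells, had 44.5 and 36.4 TPM in replicates 1 and 2. Gsk3b, a kinase that marks Bcl-3 for degradation, had 41.1 and 22.6 TPM, and Cyld, which removes ubiquitin chains from Bcl-3, had 15.6 and 12.8 TPM. The others were Hdac1, a histone deacetylase (87.4 and 62.5 TPM), Rc3h1, which encodes the RNA-binding protein Roquin-1 (16.7 and 12.8 TPM), and Akirin2, a nuclear partner of IκBζ (5.01 and 6.63 TPM).

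The 7 genes known to need IκBζ in stimulated mouse macrophages were low at this time, at a median of 0.955 TPM, while Nfkbiz stood at 547 TPM. Il12b, the p40 chain of interleukin 12, was the only one detected in both libraries, at 7.21 and 1.66 TPM in replicates 1 and 2, from 202 and 58 counts. Il6 had 0.64 and 0.27 TPM, Csf2 2.87 and 0.32 TPM, Csf3 0.25 and 0 TPM, Cebpd 0.60 and 1.31 TPM, Edn1 0.28 and 0.10 TPM, and Lcn2 0.17 and 1.87 TPM. Over all 30 of these pathway genes, 23 were detected, and 24 had a mean of at least 50 counts. Of those 24, 4 were higher in replicate 1 beyond 2-fold (Nfkb1, Nfkb2, Relb and Il12b) and 2 were lower (Nkiras2 and Cebpd). Over all 10448 genes at that mean, 9.02% were beyond 2-fold in either direction, and 3.8% were so with the higher level in replicate 1.

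**Figure D4:**
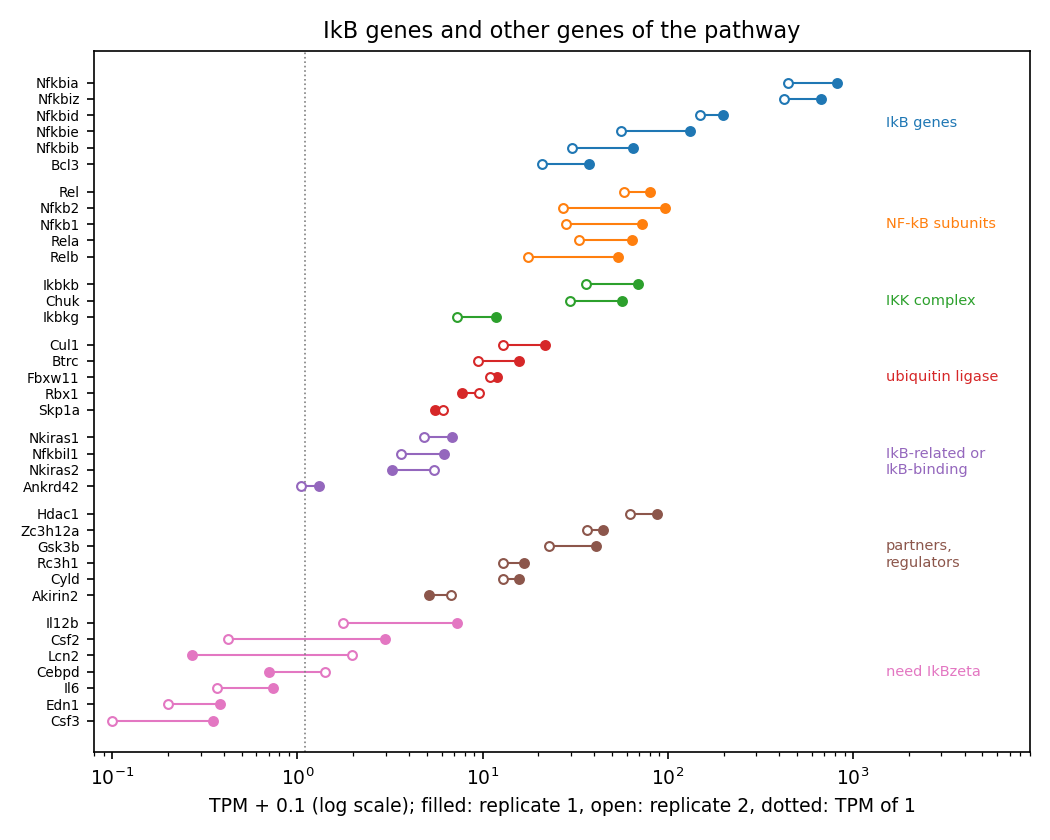
TPM + 0.1 on a log axis for each IκB gene and the 30 other pathway genes, grouped by role; filled circles are replicate 1, open circles replicate 2, joined by a line, and the dotted line marks 1 TPM. Nfkbia and Nfkbiz lie to the right of the other genes drawn, and of the 7 genes that need IκBζ only Il12b lies beyond the dotted line in both libraries.

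The cell type of the labels was checked with markers. All 8 macrophage markers were detected, with a summed level of 2627 TPM in replicate 1 and 3363 TPM in replicate 2. Of 31 markers of neutrophils, B cells, T cells, fibroblasts, dendritic cells and erythroid cells, 3 were detected, 8 were at 0 in both libraries, and their summed level was 8.72 TPM in replicate 1 and 13.0 TPM in replicate 2. The lower macrophage sum in replicate 1 came from Lyz2, with 1465 TPM in replicate 1 and 2295 TPM in replicate 2; the other 7 markers summed to 1162 and 1069 TPM. Cd68 was also lower in replicate 1, at 158 TPM against 220 TPM in replicate 2, with a log2 ratio of -0.87 after TMM. In TPM 6 of the 8 macrophage markers were higher in replicate 1, and after TMM 3 of 8 were. The part of these marker differences in the library ratios of the IκB genes was not tested.

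The transcript tables split each gene into its annotated transcripts, and the share given below is the transcript's percent of the gene's TPM. Nfkbie was the only member led by a transcript of the retained-intron class. Nfkbie-202 held 53.2% in replicate 1 and 66.3% in replicate 2, a mean of 59.8% ± 9.23 (SD, n = 2), from 3324 and 2168 counts, while the coding Nfkbie-201 held 45.5% and 33.7%. Of 4434 genes with such a transcript and a mean of at least 5 TPM, 8.41% had a share at or above that of Nfkbie, the median was 26.8%, and 15.2% reached 50%. In the second tables Nfkbie-202 held 47.2% and 53.8%, against 52.2% and 46.2% for Nfkbie-201, so there it led in replicate 2 alone.

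Nfkbie-202 differs from the coding transcript by keeping intron 2, 610 bases at chr17:45558598-45559207 (mm10, plus strand, 53.9% GC), so its share rests on reads in that stretch. The junctions are shown to place it, exon bases in capitals and intron bases in lower case.
Nfkbie exon 2 into intron 2: AACCTTTACCAGgtgagtagagagagaagg
Nfkbie intron 2 into the next exon: acccctctatgcctacagACAGCACTGCAT
The intron has the usual gt and ag ends. Nuclear RNA holds unspliced precursors, and in these tables reads of a precursor and of a finished transcript that keeps the intron cannot be told apart.

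Nfkbid also has a short retained-intron transcript, Nfkbid-204, with 12.7% in replicate 1 and 11.9% in replicate 2, and 78.9% of the background genes had a share at or above its mean. It keeps intron 7, 114 bases at chr7:30425856-30425969 (mm10, plus strand, 58.8% GC), which is short enough to give whole, again with exon bases in capitals.
Nfkbid intron 7: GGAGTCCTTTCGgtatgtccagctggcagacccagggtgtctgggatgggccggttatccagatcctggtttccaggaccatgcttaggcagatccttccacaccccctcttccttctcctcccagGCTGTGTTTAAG
By counts rather than TPM this transcript took only 2.22% of Nfkbid in both libraries, being far shorter than the coding transcripts.

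For Nfkbia the coding Nfkbia-201 led with 95.6% in replicate 1 and 82.7% in replicate 2. The other transcript, Nfkbia-202, is classed as retained intron but holds just 32 bases that Nfkbia-201 lacks and no whole intron, and its share was 4.41% in replicate 1 and 17.3% in replicate 2. Those shares are far apart between the libraries. The second tables gave it 22.0% and 30.1%, again lower in replicate 1.

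For Nfkbib, all annotated transcripts are coding. Nfkbib-202 held 92.4% in replicate 1 and 90.3% in replicate 2, and Nfkbib-201, which has 884 bases more, 7.62% and 9.73%. Of those 884 bases, 314 lie in exons of the overlapping gene Ccer2. Nfkbib-203 was at 0 in both libraries in the first tables, but at 22.9% in replicate 1 and 0.03% in replicate 2 in the second tables, so its presence rests on 1 library and 1 quantification. The 42 bases that it shares with no other Nfkbib transcript all lie in exons of the overlapping gene Sirt2.

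Nfkbiz has 2 main start regions. Nfkbiz-204, which starts at chr16:55822138 and has a coding length of 2184 bases, held 84.4% in replicate 1 and 90.8% in replicate 2. Transcripts from the upstream start at chr16:55838899 held 15.6% and 9.18% together. By TPM, most of that was the noncoding Nfkbiz-205, which ends before the body of the coding transcripts, at 9.87% and 8.18%. The coding Nfkbiz-203, with a shorter coding length of 1887 bases, had 5.75% and 1.00%. By counts Nfkbiz-203 was the larger in replicate 1, at 6.39% against 3.60% for Nfkbiz-205. In replicate 2 it was the smaller, at 1.10% against 2.99%. The second tables gave the upstream start 26.2% and 14.3%, so the downstream start led in both libraries of both kinds of table.

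Nfkbid has 3 starts of coding transcripts, and the tables did not give the same leader. In the first tables Nfkbid-203, from chr7:30421732 with a coding length of 1410 bases, held 72.7% in replicate 1 and 73.9% in replicate 2, Nfkbid-201, from chr7:30423275 with a coding length of 981 bases, 14.6% and 14.2%, and Nfkbid-202, from chr7:30422406, was at 0 in both. In the second tables Nfkbid-202 led with 38.0% and 35.5%, against 28.1% and 34.9% for Nfkbid-203. The start of Nfkbid-202 is the one whose window holds both κB matches shown above. The data thus do not settle which start supplies most of the nuclear Nfkbid RNA.

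Transcript shares of Bcl3 also differed between the quantifications. In the first tables the full coding Bcl3-201 held 56.3% in replicate 1 and 56.7% in replicate 2, the retained-intron transcripts Bcl3-202 22.3% and 21.7% and Bcl3-206 11.1% and 13.2%, and the short coding Bcl3-203 10.3% and 8.45%. The retained-intron class summed to a mean of 34.1%, and 36.6% of the background genes were at or above it. By counts this class took only 12.2% in replicate 1 and 12.9% in replicate 2. Neither of its transcripts keeps a whole intron of Bcl3-201. The second tables brought forward a pair of processed transcripts that the first tables listed at 0, Bcl3-204 with 39.2% and 38.6% and Bcl3-205 with 15.7% and 8.94%, and Bcl3-201 held 22.3% and 29.3%. By counts, Bcl3-201 held 82.9% in replicate 1 and 83.0% in replicate 2 in the first tables.

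**Figure D5:**
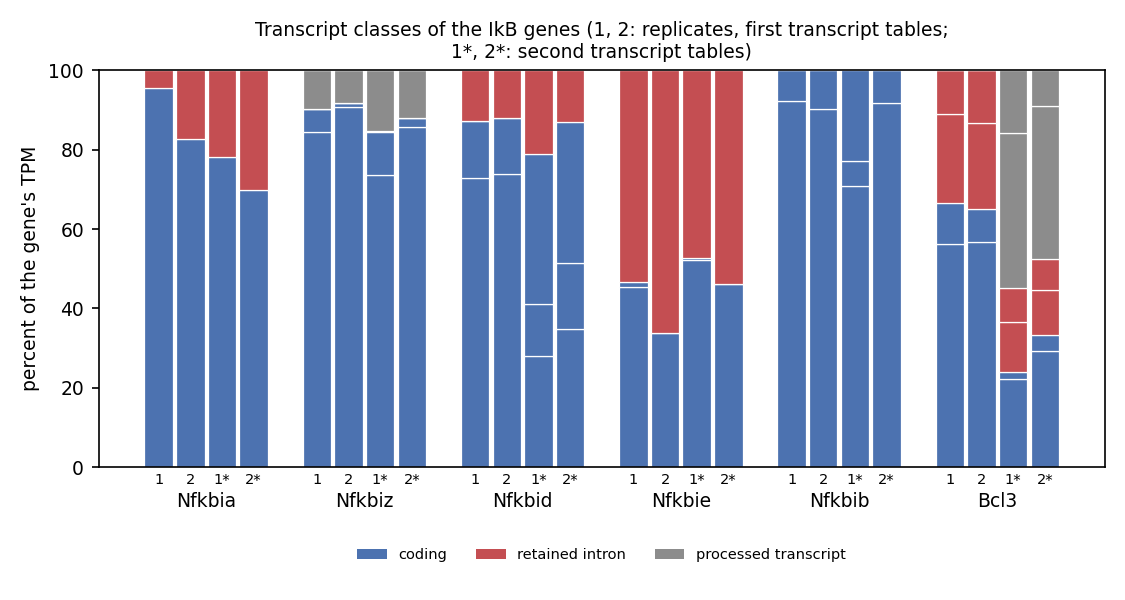
Percent of each IκB gene's TPM by transcript class (blue coding, red retained intron, grey processed transcript; white lines part the transcripts), for replicates 1 and 2 in the first transcript tables and, starred, in the second. The red class fills between 47.2% and 66.3% of the Nfkbie bars, and the grey class fills 54.9% and 47.5% of the starred Bcl3 bars but none of the unstarred ones.

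Neighbouring genes overlap Nfkbib and Bcl3, and no source used here says if reads were assigned by strand, which leaves the shared stretches uncertain. Sirt2, a deacetylase gene on the opposite strand, shares 42 exonic bases with Nfkbib, all in Nfkbib-203. It had 53.0 and 27.9 TPM in replicates 1 and 2. Ccer2, also opposite, shares 314 exonic bases with Nfkbib, all in Nfkbib-201 and in no other Nfkbib transcript, and had 54 and 37 counts. Bcl3 shares 161 exonic bases with the antisense gene Gm16175, which was at 0 counts in both libraries, and its introns hold Gm16174, with 19 and 8 counts. No annotated gene overlapped Nfkbia, Nfkbie, Nfkbiz or Nfkbid.

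The 3′ UTRs of the leading coding transcripts were searched for ATTTA, the core of AU-rich elements that can shorten mRNA life. Nfkbiz-204 held 4 in a 3′ UTR of 1355 bases, and 26.0% of 8702 genes had as many or more. Nfkbia-201 held 2 in 512 bases, Nfkbid-203 held 1 in 559 bases, and the 3′ UTRs of Bcl3-201 (410 bases), Nfkbie-201 (1102 bases) and Nfkbib-202 (71 bases) held none. At least 1 match was found in 3 of 6 members and in 65.3% of genes at large, without regard to length. The median 3′ UTR of genes at large was 951 bases, longer than those of Nfkbia-201, Nfkbid-203, Bcl3-201 and Nfkbib-202. Per kilobase, Nfkbia-201 held 3.91, Nfkbiz-204 2.95 and Nfkbid-203 1.79, against a median of 1.39, while Nfkbie-201 and Bcl3-201 held 0. A 3′ UTR as short as that of Nfkbib-202 leaves little room for a match, and no rate was taken for it.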

How the data were processed

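Nucleoplasmic total RNA of 1 group (2 libraries) was measured. Per the file headers, the authors deposited gene tables with expected counts, TPM and posterior-mean TPM with credibility bounds, first transcript tables that add each transcript's percent of the gene's TPM, and second transcript tables with estimated counts and TPM from another quantification. The build is mm10, per the labels, and transcript IDs were matched to GENCODE M21; names of aligners and counters were not found in the labels or headers.

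Expected counts were rounded. Ratios of replicate 1 over replicate 2 used TMM scaling (edgeR 4.0.16 in R 4.3.3), with DESeq2 1.42.0 size factors as an alternative, for genes with a mean of at least 50 counts. The ratio call was tested on simulated counts that held counting error only, with no other difference between libraries. There, 191 of 200 genes changed 3-fold were recovered, and 0 of 10262 unchanged genes were called. In the real pair 9.02% of 10448 genes passed the call, so the simulation does not give its rate of false calls. With 1 group, no test between conditions was possible, and SDs measure only the spread between 2 libraries. Annotated counts were 15846212 and 14874879 in replicates 1 and 2, and 21932480 and 25815351 in the second tables. The deposited bounds, handled as a score, had no stated level, per the file headers. They were compared relative to posterior-mean TPM. The members, pathway lists and markers were chosen with earlier results of these data known. Named genes were the members, all genes of the lists, the nearest gene by level and overlapping genes; named transcripts were the leading ones and those with at least 10% of the gene's TPM, and a few others chosen after their values were seen. Protein sequences were not used here.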

Additional observations from a re-analysis of the deposited data

How the results depend on the processing

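All 6 genes stayed detected at limits of 0.5 and 5 TPM, in the second tables and in either library alone, and the order of the 6 was the same in the second tables. The median level of the members, 134 TPM, was 80.4 TPM in the second tables, and 103 to 165 TPM with 1 library left out. No member passed 2-fold between libraries by library size alone, DESeq2 size factors, the second tables, no filter on low counts or a mean of at least 10 counts, while 2 did by the ratio of TPM. The median share in coding transcripts, 88.4% over 6 genes, was 78.5% in the second tables, 96.2% by expected counts and 85.4 to 88.7% with 1 library left out. The median share in retained-intron transcripts, 23.2% over the 4 genes that have one, was 8.43% by expected counts, which weigh long transcripts more, and 23.0 to 26.1% with 1 library left out. The cause of the differences between the 2 kinds of table was not tested. No paired analysis was possible because there was only 1 group. With 2 libraries, each SD rests on a single difference, and the transcript shares of Bcl3 and Nfkbib rest on the fewest counts.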
